A study of Mus musculus with 6 samples.

Results

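The genes described are the neutrophil gelatinase-associated lipocalin gene Lcn2, the serum amyloid A genes Saa1, Saa2, Saa3 and Saa4, the orosomucoid genes Orm1, Orm2 and Orm3, haptoglobin (Hp) and haemopexin (Hpx). They are 10 of the 53715 genes in the deposited table, found by matching Ensembl mouse gene IDs to these symbols, and all 10 passed the filter on low counts that left 13022 genes for testing. The members were chosen by measured values, the fold changes and calls of this same comparison together with family membership, so their differences are given as a description without p-values. Polyadenylated liver RNA came from 8-week-old F1 males of ICR, an outbred mouse stock, in 3 control F1 and 3 FR F1 libraries. Both groups share strain, sex, age and tissue, and the labels list a "stress" that is "control" in one group and "paternal famine" in the other. FR is not spelled out, the series title speaks of paternal overdiet, and the genotype is not given beyond the strain. The labels do not say whether each library is a separate animal, so errors and p-values measure the spread between these libraries, which may in part be technical. The sources used here do not give the hour of collection or whether littermates were used.

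In background, the acute phase response is the change in the plasma proteins that the liver makes during infection or injury. Interleukin 6 and its relatives act through gp130 and STAT3, and interleukin 1 through NF-kB, with C/EBP factors and glucocorticoids adding to both. In mouse hepatocytes Saa1, Saa2, Lcn2 and the orosomucoid genes are among the targets that respond strongly, while haptoglobin and haemopexin are abundant at rest.

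All 10 genes had lower mean levels in FR F1 than in control F1 livers, by very different amounts. Lcn2, Orm3, Orm2, Saa3 and Saa2 had log2 fold changes of -2.84 to -1.83 and Saa1 of -1.14, while Saa4, Orm1, Hp and Hpx had -0.29 to -0.20. In the whole-table fit, Lcn2, Saa2, Orm2 and Orm3 met the threshold as lower, 0 members met it as higher and 6 did not meet it (edgeR quasi-likelihood F test at a Benjamini-Hochberg adjusted p under 0.05 over 13022 genes, n = 3 per group). Over all tested genes 0.837% were called in either direction, 0.445% as lower and 0.392% as higher. Since this contrast chose the genes, nothing is read from that difference. The median log2 fold change of the 10 genes was -1.48, beside 0.0004 over all tested genes.

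These calls depended on single libraries. Of the 10 genes, 6 were called lower with control replicate 1 left out, 0 without control replicate 2, 5 without control replicate 3, 0 without FR replicate 1, 1 without FR replicate 2 and 3 without FR replicate 3. The calls over all genes moved along with them, to 651, 17, 159, 7, 11 and 45 in the same order, from 109 with all libraries. In the fits with 0 members called, 6 members were at an unadjusted p under 0.05, among 1651 genes without control replicate 2 and 1470 without FR replicate 1, and since this contrast chose the members nothing is read from that. With all libraries DESeq2 called 6 of the 10 lower, adding Saa1 and Saa3, against a share of 1.57% called lower and 3.51% called in either direction over all genes. limma-voom called 4, which were Lcn2, Saa1, Saa2 and Orm2, against 0.445% and 0.791%. All 10 fold changes kept their sign in each of these fits.

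**Figure D1:**
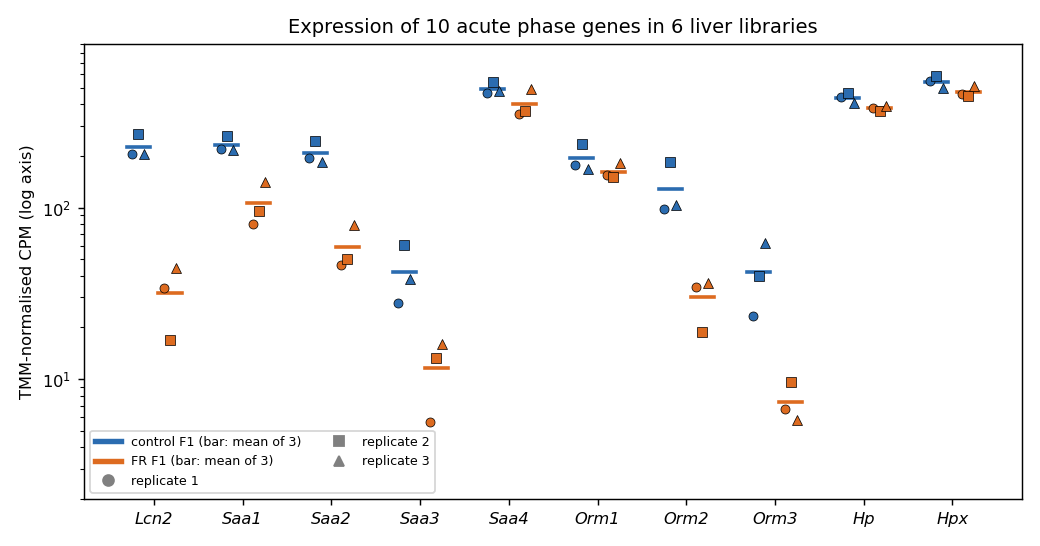
TMM-normalised CPM of each gene on a log axis in the 3 control F1 libraries (blue) and the 3 FR F1 libraries (orange), with a marker shape per replicate number and a bar at each group's mean. Lcn2 sits at 205 to 268 CPM in control F1 livers and 17.0 to 44.3 in FR F1, while the 2 groups lie close together for Saa4, Orm1, Hp and Hpx.

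Lcn2 lies on the reverse strand of chromosome 2 (chr2:32384633-32388252, mm10), and its reference mRNA has 6 exons and 915 bases. It encodes a secreted lipocalin that binds bacterial iron carriers, made by hepatocytes in the acute phase and stored in neutrophil granules. Lcn2 stood at 205, 268 and 207 CPM (counts scaled to library size, after TMM normalisation) in control replicates 1, 2 and 3, from 472, 594 and 539 counts. In FR replicates 1, 2 and 3 it stood at 34.0, 17.0 and 44.3 CPM, from 91, 46 and 108 counts. Each FR library was below each control library, and FR replicate 2 was the lowest of the 6. The log2 fold change of Lcn2 was -2.84 ± 0.31 (SE, n = 3 per group), the furthest from 0 among the 10 genes, and lay between -3.14 and -2.53 with any 1 library left out.

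Lcn2 is also a neutrophil transcript, and the 13 neutrophil markers were few and mixed in direction. They summed to 15.8 to 23.0 CPM in control F1 livers and 18.4 to 32.2 CPM in FR F1. In the controls that sum was below Lcn2 alone. It was above Lcn2 in FR replicate 2 (18.4 against 17.0 CPM), close to it in FR replicate 1 (32.2 against 34.0 CPM) and below it in FR replicate 3 (28.7 against 44.3 CPM). All 13 had counts in at least 1 library, and 6 had a lower and 7 a higher mean in FR F1. Only S100a9 and Csf3r were high enough to be tested, 0 were called by any of the 3 tools and 1 had an unadjusted p under 0.05. The granule protease gene Elane, at 3, 6 and 4 counts in control F1 and 1, 0 and 3 in FR F1, and the granule gene Ngp, at 3, 0 and 10 and at 2, 1 and 1, had lower means in FR F1, like Lcn2. S100a8, at 2, 1 and 2 and at 6, 4 and 5, and Mmp9, at 0, 1 and 2 and at 8, 5 and 2, had higher means. In CPM every FR library lay below every control library in 1 marker, Elane, and above in 3, S100a8, S100a9 and Mmp9. The shares over all tested genes were 13.2% and 12.5%. S100a9, a calcium-binding protein of neutrophils, rested on 7, 3 and 6 counts in control F1 and 19, 11 and 12 in FR F1. Its log2 fold change was 1.24 ± 0.45, opposite in sign to Lcn2 (edgeR adjusted p = 0.216). Csf3r, the receptor for granulocyte colony-stimulating factor, had 0.31 ± 0.32. The part of neutrophils in the Lcn2 result was not tested. In whole tissue, fewer cells of a type and less RNA per cell cannot be told apart.

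The serum amyloid A genes lie together on chromosome 7, where Saa3 (chr7:46711998-46715700), Saa4 (chr7:46727998-46732603) and Saa1 (chr7:46740497-46742980) are on the reverse strand and Saa2 (chr7:46751790-46754313) on the forward strand. Each reference mRNA has 4 exons. Their proteins are small apolipoproteins of high-density lipoprotein: Saa1 and Saa2 are the classical hepatic acute phase forms, Saa3 is made in the liver and also by macrophages and adipocytes in mouse, and Saa4 is known as the constitutive form. Saa1 and Saa2 are near copies, and their coding sequences matched at 95.1% of positions, with 18 of 366 bases different and a longest identical run of 73. The stretch of 90 coding bases with the most differences is shown because reads can be told apart there. It runs from base 60 to base 149 counted from the A of the start codon, reads 5′ to 3′ on the mRNA, and has its 11 differing positions in capitals.
Saa1: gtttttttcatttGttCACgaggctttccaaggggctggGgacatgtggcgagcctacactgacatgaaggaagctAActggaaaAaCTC
Saa2: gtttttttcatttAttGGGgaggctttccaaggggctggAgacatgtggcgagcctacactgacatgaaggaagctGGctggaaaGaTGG
Outside such stretches the mRNAs are less separable. Of the possible 50-base reads from the Saa1 mRNA, 14.8% matched another gene's transcript exactly (Saa2 or Saa3), and 13.3% of those from Saa2 matched Saa1. At 75 bases the shares were 4.67% and 4.70%, and at 100 bases 0 of 510 start positions in Saa1 and 0 of 507 in Saa2 were shared. Neither the read length nor the treatment of shared reads is given. If shared reads were placed on either copy, part of each gene's count would belong to the other.

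Saa1 was at 219, 262 and 216 CPM in control replicates 1 to 3 and at 80.8, 95.1 and 141 CPM in FR replicates 1 to 3. Saa2, its near copy, was at 194, 246 and 186 CPM in control F1 livers and at 46.4, 50.1 and 79.6 CPM in FR F1. For both genes every FR library lay below every control library, control replicate 2 was the highest control and FR replicate 3 the highest FR library. The log2 fold change was -1.14 ± 0.21 for Saa1 and -1.83 ± 0.23 for Saa2.

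The balance between the copies differed between the groups. Saa1 held 52.9%, 51.6% and 53.8% of the counts of the pair in control replicates 1 to 3, and 63.5%, 65.5% and 63.9% in FR replicates 1 to 3. The group means were 52.8% ± 1.07 and 64.3% ± 1.03 (SD, n = 3), and the groups did not overlap. The exact 95% binomial intervals of the control libraries ran from 48.7% to 56.8% at most and those of the FR libraries from 58.2% to 70.2%, covering counting error only. A sum over the pair does not depend on how the counted reads were divided between the copies. Any shared reads that were discarded would be missing from it, and Saa1 also shares some 50-base stretches with Saa3. The sum was 413, 508 and 402 CPM in control F1 livers and 127, 145 and 221 CPM in FR F1. The log2 fold change of the sum was -1.41 ± 0.21, between the values of Saa1 and Saa2.

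Saa3 and Saa4 share less sequence with the pair. The coding sequence of Saa3 matched Saa1 at 74.3% of positions and Saa2 at 72.7%, and that of Saa4 matched Saa1 at 64.4%. Only 1.78% of 50-base reads from the Saa3 mRNA, all shared with Saa1, and 1.37% from Saa4 occurred in another gene's transcript, and 0 did at 75 bases. For Saa4 those matches lay in more than 10 unrelated genes. Saa3 was at 27.8, 60.4 and 38.4 CPM in control F1 livers and at 5.61, 13.3 and 16.0 CPM in FR F1, from 15 to 39 counts in the FR libraries. The groups did not overlap, and its log2 fold change of -1.86 ± 0.42 carried the largest standard error of the 10. Saa4, the constitutive form, was at 463, 537 and 482 CPM in control F1 livers and at 351, 367 and 490 CPM in FR F1. FR replicate 3 lay inside the control range, and the log2 fold change of Saa4 was -0.29 ± 0.14. Along this cluster, Saa4 sits between Saa3 and Saa1, both of which had larger differences.

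The orosomucoid genes are neighbours on the forward strand of chromosome 4 in the order Orm1 (chr4:63344560-63348163), Orm3 (chr4:63356162-63359511) and Orm2 (chr4:63362449-63365878), each with 6 exons. They encode alpha-1-acid glycoproteins, plasma lipocalins that bind drugs and lipids and dampen inflammation. Their coding sequences matched at 89.9% of positions between Orm1 and Orm2, 87.9% between Orm2 and Orm3 and 86.0% between Orm1 and Orm3. The 90 coding bases that differ most among the 3 genes are shown for the same reason as above, from base 127 to 216 in Orm1 and Orm2 and from 124 to 213 in Orm3, with the 30 positions that are not identical in all 3 in capitals.
Orm1: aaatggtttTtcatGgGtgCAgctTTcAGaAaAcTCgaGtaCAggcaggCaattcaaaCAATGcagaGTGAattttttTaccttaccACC
Orm2: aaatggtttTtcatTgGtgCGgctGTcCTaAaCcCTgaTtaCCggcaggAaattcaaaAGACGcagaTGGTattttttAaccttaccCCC
Orm3: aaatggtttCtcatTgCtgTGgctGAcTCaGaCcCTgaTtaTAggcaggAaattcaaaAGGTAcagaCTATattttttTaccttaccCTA
Elsewhere Orm1 and Orm2 have an identical run of 104 coding bases. Exact matches to another gene made up 20.4% of 50-base reads from Orm1, 22.7% from Orm2 and 3.59% from Orm3. At 100 bases the share was still 6.95% in Orm1 and Orm2, each with the other, and 0 of 674 start positions in Orm3. Some 50-base reads from Orm2 also matched Gm11212, an annotated pseudogene.

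Orm1 was at 176, 235 and 168 CPM in control F1 livers and at 154, 150.0 and 181 CPM in FR F1. The groups overlapped and the log2 fold change was -0.26 ± 0.16. Orm2 was at 98.4, 183 and 103 CPM in control F1 livers and at 34.4, 18.8 and 36.5 CPM in FR F1, without overlap, and its log2 fold change was -2.10 ± 0.33. Orm3 was at 23.4, 40.1 and 62.5 CPM in control F1 livers and at 6.73, 9.58 and 5.74 CPM in FR F1, from only 14 to 26 counts per FR library, and its log2 fold change was -2.51 ± 0.40. The differences of Orm2 and Orm3 were thus much further from 0 than that of Orm1, although the 3 genes lie side by side.

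The make-up of the family shifted with those differences. Orm1 held 59.2%, 51.3% and 50.4% of the orosomucoid counts in control replicates 1 to 3 and 79.0%, 84.1% and 81.1% in FR replicates 1 to 3. Orm2 held 34.6% ± 4.76 in control F1 and 14.8% ± 3.76 in FR F1 (SD, n = 3), and Orm3 held 11.8% ± 6.03 and 3.79% ± 1.43. None of these shares overlapped between the groups. The family sum was 298, 459 and 334 CPM in control F1 livers and 196, 178 and 224 CPM in FR F1, with a log2 fold change of -0.86 ± 0.18.

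**Figure D2:**
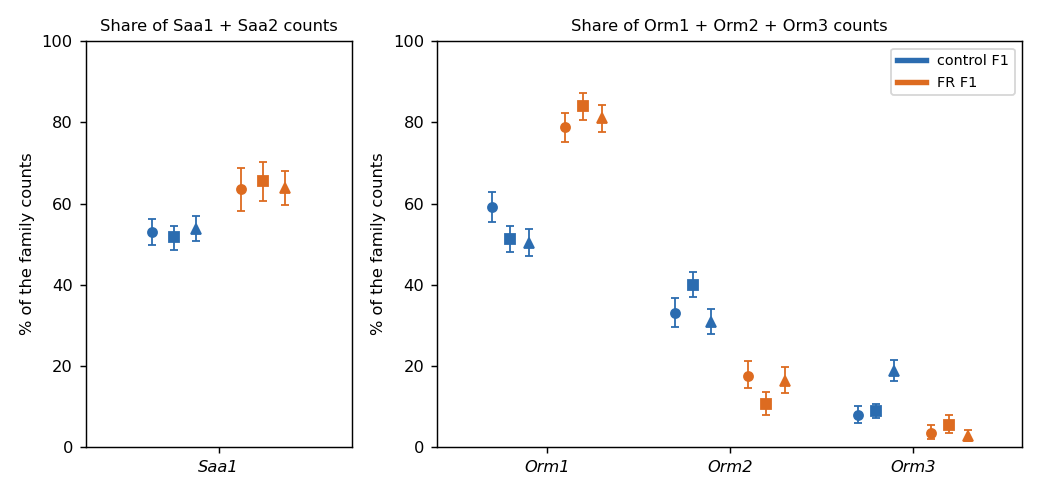
Share of its family's deposited counts held by Saa1 (left, of Saa1 and Saa2) and by Orm1, Orm2 and Orm3 (right), in percent, for each control F1 (blue) and FR F1 (orange) library with exact 95% binomial intervals for counting error. The Saa1 share lies at 51.6% to 53.8% in control F1 and 63.5% to 65.5% in FR F1, and the Orm1 share at 50.4% to 59.2% and 79.0% to 84.1%.

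Haptoglobin (Hp, reverse strand of chromosome 8, chr8:109575128-109579172, 5 exons) captures haemoglobin released from red cells. Haemopexin (Hpx, reverse strand of chromosome 7, chr7:105591613-105600137, 10 exons) captures free haem. Neither mRNA shared any 50-base stretch with another gene's transcript, and the same was true of Lcn2. Hp was at 441, 469 and 405 CPM in control F1 livers and at 382, 367 and 390.2 CPM in FR F1, so that the groups were apart by a small margin. Hpx was at 548, 587 and 497 CPM in control F1 livers and at 463, 445 and 513 CPM in FR F1, and FR replicate 3 was above control replicate 3. Their log2 fold changes were -0.21 ± 0.10 for Hp and -0.20 ± 0.10 for Hpx.

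In 7 of the 10 genes every FR library lay below every control library, all but Saa4, Orm1 and Hpx. The same held for 13.2% of all tested genes, and since this contrast chose the members nothing is read from that. Within the groups 1 library was mostly the highest, while the lowest varied from gene to gene. In CPM, control replicate 2 was the highest control library in 9 of the 10 genes, and FR replicate 3 the highest FR library in 9 of 10. Orm3 was the exception in both, highest in control replicate 3 and lowest in FR replicate 3. Control replicate 2 and FR replicate 3 also had the lowest totals of their groups, 2279755 and 2468857 counts. In raw counts Lcn2 was still highest in both (594 and 108), while Hp was highest in control replicate 3 (1056) and lowest in FR replicate 3 (951). The part of depth in this pattern was not tested. Control replicate 3, where Orm3 was highest, also stood apart in mitochondrial transcripts (0.101% of counts, 0.282% to 0.352% in the others) and in major urinary protein transcripts (0.0779%, 0.134% to 0.183% in the others), whose part in the result was not tested. Without control replicate 3 the log2 fold change of Orm3 was -2.10.

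Per kilobase of mRNA, which corrects for mRNA length, the order in control F1 livers was Saa1 (381 ± 42.8 CPM per kilobase, SD, n = 3), Hpx (363), Saa2 (344), Hp (326), Orm1 (249.5), Lcn2 (247), Saa4 (236), Orm2 (166), Saa3 (76.0) and Orm3 (54.4). The ranges of neighbours in that order overlapped except between Orm2 and Saa3. In FR F1 livers the order was Hpx (316 ± 23.6 CPM per kilobase), Hp (282), Orm1 (209), Saa4 (192), Saa1 (173.5), Saa2 (96.9), Orm2 (38.6), Lcn2 (34.7), Saa3 (20.9) and Orm3 (9.51). There the ranges of neighbours did not overlap between Hpx and Hp, Hp and Orm1, Saa1 and Saa2, and Saa2 and Orm2. Saa1 thus had the highest mean per kilobase of the 10 in control F1 and stood at rank 5 in FR F1. Whether counts of abundant transcripts were limited before deposit was not tested. Such a limit would make the distances between the abundant genes too small, so these values are not a measure of their true levels.

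The abundant members came close to 1 deposited count per base pair of mRNA. The highest value in any library was 0.956 for Saa1, 0.899 for Saa2, 0.869 for Hpx, 0.785 for Hp, 0.674 for Orm1, 0.649 for Lcn2, 0.600 for Saa4 and 0.525 for Orm2, so that 8 of the 10 reached 0.5. Saa3 and Orm3 stayed below, at 0.241 and 0.211. Among 11516 tested protein-coding genes 360 (3.13%) reached 0.5 in a library. The highest value, among those of at least 300 base pairs, was 1.51. Hpx kept to 0.805 to 0.869 and Hp to 0.707 to 0.785 over all 6 libraries. Whether counts of abundant transcripts were limited before deposit was not tested, and the labels name no such step. As a measure of what such a limit could do, counts were expanded as if an assumed ceiling just above 1 count per base pair of mRNA applied, a setting chosen after seeing the data. The log2 fold change of Saa2 then became -2.38 ± 0.27, that of Saa1 -1.65 ± 0.26 and that of Lcn2 -3.22 ± 0.34. Saa4, Orm1, Hp and Hpx moved by at most 0.06, to between -0.35 and -0.25.

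**Figure D3:**
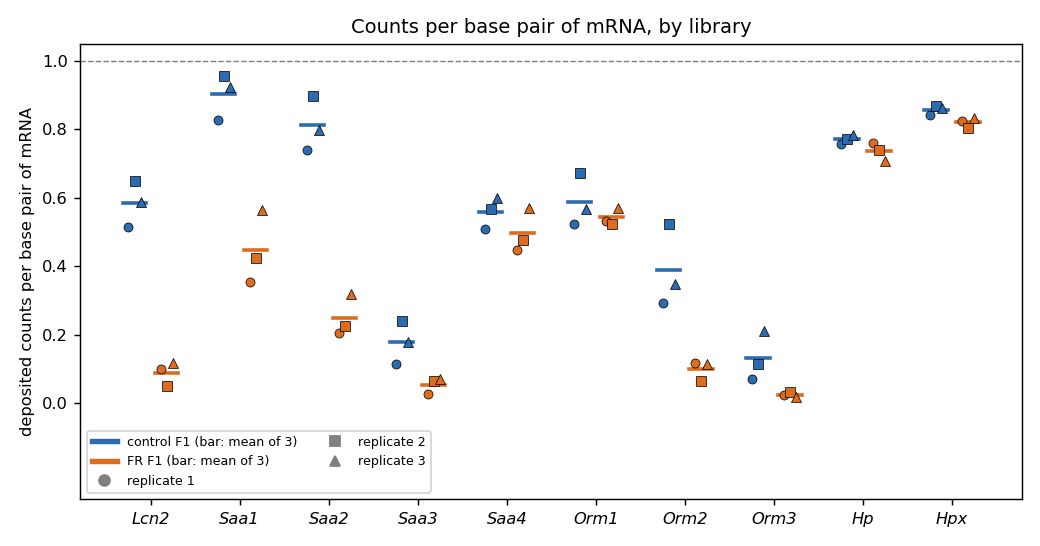
Deposited counts per base pair of reference mRNA for each gene in each library (control F1 blue, FR F1 orange; bars are means of 3 libraries; the dashed line marks 1 count per base pair, and the axis starts below 0 to hold the key). Saa1 reaches 0.956 in a control library, and Hp and Hpx stay between 0.707 and 0.869 in all 6.

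Promoters were read from RefSeq (GRCm38.p6), which has an entry for 8 of the 10 genes; Orm1 and Hp are named only. Those of Saa1, Saa2, Orm2 and Orm3 are shown because they belong to near copies that were lower together, and that of Lcn2 because it had the largest difference. Each is the 250 bases before the RefSeq start of the gene, 5′ to 3′ on the gene's strand, with motif matches in capitals.
Lcn2 (chr2:32387740-32387989, reverse strand): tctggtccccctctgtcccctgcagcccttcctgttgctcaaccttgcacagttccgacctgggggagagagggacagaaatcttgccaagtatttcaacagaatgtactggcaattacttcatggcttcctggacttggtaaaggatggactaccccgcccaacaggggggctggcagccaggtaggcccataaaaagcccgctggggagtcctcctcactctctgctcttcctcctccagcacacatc
Saa1 (chr7:46742981-46743230, reverse strand): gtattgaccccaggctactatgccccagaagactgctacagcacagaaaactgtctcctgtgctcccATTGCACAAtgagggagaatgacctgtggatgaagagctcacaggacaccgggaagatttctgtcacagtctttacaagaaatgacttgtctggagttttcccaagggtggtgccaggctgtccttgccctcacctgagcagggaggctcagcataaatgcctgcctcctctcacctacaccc
Saa2 (chr7:46751583-46751832, forward strand): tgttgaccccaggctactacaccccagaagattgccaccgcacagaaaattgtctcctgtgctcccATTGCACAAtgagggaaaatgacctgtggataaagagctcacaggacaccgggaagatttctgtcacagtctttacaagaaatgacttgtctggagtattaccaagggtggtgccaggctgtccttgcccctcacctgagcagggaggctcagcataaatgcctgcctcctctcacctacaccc
Orm2 (chr4:63362199-63362448, forward strand): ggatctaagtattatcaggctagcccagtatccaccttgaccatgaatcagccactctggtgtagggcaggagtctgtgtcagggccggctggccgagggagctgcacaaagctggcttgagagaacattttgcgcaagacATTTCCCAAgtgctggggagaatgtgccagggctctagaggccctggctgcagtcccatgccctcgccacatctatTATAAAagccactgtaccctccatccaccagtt
Orm3 (chr4:63355908-63356157, forward strand): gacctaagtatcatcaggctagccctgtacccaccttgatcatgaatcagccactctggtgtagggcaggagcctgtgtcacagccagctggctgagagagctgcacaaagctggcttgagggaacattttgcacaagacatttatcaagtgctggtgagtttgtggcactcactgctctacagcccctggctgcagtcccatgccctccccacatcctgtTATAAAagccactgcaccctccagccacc
Aligned to each other, the Saa1 and Saa2 promoters matched at 94.8% of positions and those of Orm2 and Orm3 at 85.5%. Saa3 and Saa4 matched each other and the pair at 42.3% to 48.2%. The motifs searched, on both strands, were the core promoter motif TATAAA, TTNNGNAAT for C/EBP, TTCNNNGAA for STAT factors, the interleukin 6 response element CTGGGAA, and for NF-kB the letters GGGA and CC with any 4 bases between them. The C/EBP letters were found in Saa1 and Saa2 as ATTGCACAA and in Orm2 as ATTTCCCAA, each on the strand opposite to the gene, and in 10.2% of all 32851 promoters. TATAAA was found in Orm2 and Orm3 and in 12.4% of all promoters. The NF-kB, STAT and interleukin 6 response element letters were found in 0 of the 8 members, and in 17.6%, 7.02% and 9.10% of all promoters. A match is a description of the letters and not a binding site, and a missing one says only that these letters are not in this window.

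The genes beside the clusters were compared to see whether neighbours moved as well. None of the 10 nearest tested protein-coding genes met the threshold in edgeR, 2 had an unadjusted p under 0.05 (17.9% of all tested genes), and DESeq2 called 1 and limma-voom 0. In 5 of the 10, which were 1110008P14Rik, Ptges2, Saal1, Smpd1 and Trim3, every FR library lay below every control library. In 1, Col27a1, every FR library lay above. The shares over all tested genes were 13.2% and 12.5%, and the cause was not tested. The gene DESeq2 called was Col27a1, a collagen gene next to Orm1, which was higher with a log2 fold change of 1.06 ± 0.29 (edgeR adjusted p = 0.141). Saal1, which lies next to Saa3, had a log2 fold change of -0.39 ± 0.22, Hps5 beyond Saa2 had 0.18 ± 0.17, and Akna beyond Orm2 had 0.25 ± 0.35. Beside Lcn2, 1110008P14Rik had -0.35 ± 0.17 and Ptges2, a prostaglandin E synthase gene, -0.47 ± 0.18. Txnl4b and Dhodh flank Hp and had -0.12 and -0.24, and Smpd1 and Trim3 flank Hpx and had -0.26 and -0.43.

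The pathway around these genes was followed through 8 lists with 99 tested genes outside the set, of which 0 met the threshold in edgeR, 24 had an unadjusted p under 0.05, DESeq2 called 5 and limma-voom 0. Over all tested genes 17.9% had an unadjusted p under 0.05, which is the share to set beside the counts for each list. Of 27 other positive acute phase genes tested, 23 had a negative and 4 a positive log2 fold change, the median was -0.18, and 7 had an unadjusted p under 0.05. Their summed level was 11136 to 13067 CPM in control F1 livers and 10722 to 11241 CPM in FR F1, so the ranges overlapped. Steap4, a metalloreductase induced in inflamed liver, was at 193 ± 11.3 CPM in control F1 livers and 130.1 ± 17.0 CPM in FR F1 (SD, n = 3), with a log2 fold change of -0.57 ± 0.14 (edgeR adjusted p = 0.106), and was the 1 gene of the list that DESeq2 called. C3, the central complement component, had the highest CPM of the list, where CPM is not corrected for mRNA length. Its log2 fold change was -0.26 ± 0.10 (edgeR adjusted p = 0.237). Those furthest from 0, picked after their values were seen, were the interleukin 1 receptor antagonist Il1rn at -1.29 ± 0.54, complement factor B (Cfb) at -0.98 ± 0.40 and the metallothionein Mt2 at -0.95 ± 0.31. Their edgeR adjusted p-values were 0.266, 0.255 and 0.183.

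Negative acute phase genes, whose transcripts fall during inflammation, also had more negative than positive log2 fold changes. Of 12 tested, 8 were negative, the median was -0.15, 0 met the threshold in edgeR and 4 had an unadjusted p under 0.05. Serpina6, the plasma carrier of corticosteroids, was at 315 ± 10.1 CPM in control F1 livers and 221 ± 20.9 CPM in FR F1, with a log2 fold change of -0.51 ± 0.11 (edgeR adjusted p = 0.0843), and was called by DESeq2 and not by limma-voom. Albumin (Alb) was at 912 ± 106 and 731 ± 42.6 CPM, with a log2 fold change of -0.32 ± 0.11 (edgeR adjusted p = 0.190).

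The ligands that drive the response were close to the limit of detection. Only Il1a and Il1b of 10 cytokines were high enough to be tested; 0 met the threshold by any of the 3 tools and 0 had an unadjusted p under 0.05. Il6 had 3 counts in FR replicate 1 and 0 in the other 5 libraries, and Il22 had 0 in all 6, where a count of 0 allows up to 3 counts per library. Il1a was at 6.92 ± 1.65 CPM in control F1 livers and 10.02 ± 4.93 CPM in FR F1, with a log2 fold change of 0.53 ± 0.41 (edgeR adjusted p = 0.515). Of 10 receptor genes tested, 0 met the threshold by any of the 3 tools, 4 had an unadjusted p under 0.05 and the median log2 fold change was 0.06. In sign, 4 were negative and 6 positive. The interleukin 6 receptor genes are named for the background above. Il6st, which encodes gp130, had a log2 fold change of 0.37 ± 0.11, and Il6ra had -0.55 ± 0.25 (edgeR adjusted p = 0.153 and 0.297). Osmr, the oncostatin M receptor chain, was at 5.95 ± 1.21 CPM in control F1 livers and 12.9 ± 2.14 CPM in FR F1, with a log2 fold change of 1.12 ± 0.31 (edgeR adjusted p = 0.139). Lifr, the leukaemia inhibitory factor receptor and the gene of the list with the highest CPM, had a log2 fold change of 0.10 ± 0.17.

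Downstream of the receptors, 0 of 15 signal transducers met the threshold by any of the 3 tools, 1 had an unadjusted p under 0.05 and the median was -0.08. Ikbkb, a kinase that releases NF-kB, had a log2 fold change of -0.31 ± 0.12 (edgeR adjusted p = 0.238), and Jak1, a kinase bound to gp130, had -0.07 ± 0.11. Of 13 transcription factor genes 0 met the threshold in edgeR, 2 had an unadjusted p under 0.05, the median was 0.02, and DESeq2 called 1 and limma-voom 0. That gene was Cebpb, one of the C/EBP factors whose common motif is given above, at 19.1 ± 9.82 CPM in control F1 livers and 46.7 ± 10.2 CPM in FR F1. Its log2 fold change of 1.29 ± 0.36 (edgeR adjusted p = 0.141) was positive, opposite in sign to all 10 genes of the set, and the groups did not overlap. The other C/EBP genes of the list are named for the common motif. Cebpa, more abundant at 335 and 340 CPM, had a log2 fold change of 0.02 ± 0.14, and Cebpd had 0.43 ± 0.32 (edgeR adjusted p = 0.941 and 0.495). Hnf4a, the nuclear receptor that maintains hepatocyte expression, had a log2 fold change of -0.35 ± 0.10 (edgeR adjusted p = 0.153).

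**Figure D4:**
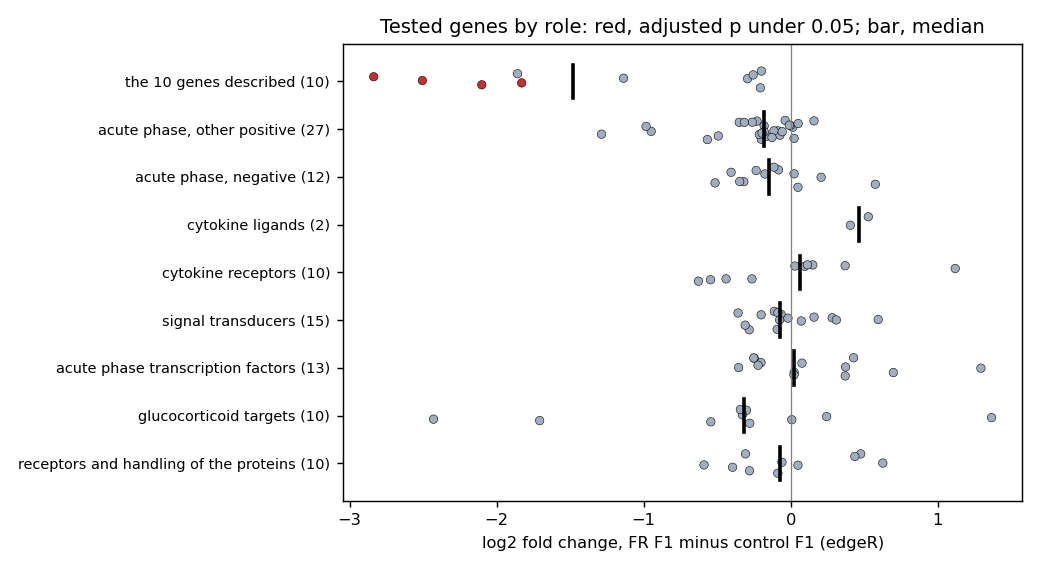
Each tested gene's log2 fold change, FR F1 minus control F1, for the 10 genes described and for 8 lists of related genes; the number tested is in brackets, the bar is the list's median, and red marks genes with an edgeR adjusted p under 0.05. The medians are -1.48 for the 10 genes and -0.18 for the 27 other positive acute phase genes, and only Lcn2, Saa2, Orm2 and Orm3 are red.

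Of 10 tested glucocorticoid targets, 0 met the threshold in edgeR, 4 had an unadjusted p under 0.05, the median was -0.32, and DESeq2 called 1 and limma-voom 0. Their summed level was 2786, 2614 and 2463 CPM in control replicates 1, 2 and 3, and 1494, 1534 and 2280 CPM in FR replicates 1, 2 and 3. FR replicate 3, the highest FR library for 9 members, was also the nearest to control F1 here. Control replicate 1 was the highest control here, and control replicate 2 was the highest for 9 members. With 3 libraries per group nothing is read from these orders. Pck1, the gluconeogenic enzyme PEPCK, was at 977 ± 55.4 CPM in control F1 livers and 670.0 ± 93.0 CPM in FR F1, with a log2 fold change of -0.54 ± 0.11 (edgeR adjusted p = 0.0804), and was the gene DESeq2 called. Furthest from 0 in the list, picked after their values were seen, were Per1, a clock gene that glucocorticoids induce, at -2.43 ± 0.86 and Lpin1, a phosphatidate phosphatase, at -1.71 ± 0.52 (edgeR adjusted p = 0.210 and 0.169). The part of collection time in these values was not tested. Of 10 tested genes for receptors and handling of the secreted proteins, 0 met the threshold in edgeR, 2 had an unadjusted p under 0.05, the median was -0.07, and DESeq2 called 1 and limma-voom 0. The called gene was Scarb1, the high-density lipoprotein receptor SR-BI, with a log2 fold change of -0.59 ± 0.11 (edgeR adjusted p = 0.0691). Lrp1, which takes up haem bound to haemopexin, had -0.28 ± 0.14 (edgeR adjusted p = 0.333).

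The tissue label was checked against cell markers. The 10 hepatocyte markers were all present and summed to 5713 to 6850 CPM in control F1 livers and 5860 to 6362 CPM in FR F1, with a median log2 fold change of -0.05, 0 called by any of the 3 tools and 3 at an unadjusted p under 0.05. Apob and Cps1, highest in CPM without correction for mRNA length, had log2 fold changes of 0.19 ± 0.16 and -0.22 ± 0.12. The 13 Kupffer cell and macrophage markers, of interest because macrophages express Saa3 in mouse, summed to 654, 387 and 781 CPM in control replicates 1 to 3 and to 947, 492 and 974 CPM in FR replicates 1 to 3. Their median log2 fold change was 0.41, 0 were called by any of the 3 tools and 2 had an unadjusted p under 0.05, and the sums overlapped between the groups. The part of macrophages in the Saa3 result was not tested. The markers with the highest CPM, Clec4f and Cd5l, had log2 fold changes of 0.24 ± 0.26 and 0.43 ± 0.36. The 8 adipocyte markers summed to 23.4 to 30.2 CPM in control F1 livers and 26.9 to 30.8 CPM in FR F1, and Cidea was at 0 in all libraries. The 2 that could be tested went in opposite directions, with log2 fold changes of 1.30 ± 0.37 for the fatty acid carrier Fabp4 and -1.28 ± 0.40 for the lipid droplet gene Cidec (edgeR adjusted p = 0.153 and 0.176). The 15 sinusoidal endothelial markers all had a positive log2 fold change, with a median of 0.93. They summed to 715, 586 and 943 CPM in control F1 livers and 1222, 1152 and 1384 CPM in FR F1, without overlap. In edgeR 0 of the 15 met the threshold and 11 had an unadjusted p under 0.05, while DESeq2 called 7 and limma-voom 1. Those with the highest CPM over all libraries, the scavenger receptor Stab2 and endoglin (Eng), had log2 fold changes of 0.05 ± 0.13 and 0.68 ± 0.23. That list was lowest in control replicate 2, the library in which 9 of the 10 genes were highest among controls. Within FR F1 the order was the other way, since the list was highest in FR replicate 3, where 9 of the 10 genes were also highest. With 3 libraries per group nothing is read from these orders, and the part of endothelial cells in the members' differences was not tested.

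The genes whose profile over the 6 libraries was most like that of Lcn2 were sought among 10856 genes with a mean of at least 10 CPM, by Pearson r of log2 CPM. They were Aacs (r = 0.994), Gm44710 (0.993), Zfp609 (0.992), Pprc1 (0.991) and Gm16907 (0.991). Over so few libraries, in which the difference between the groups sets most of the r, many genes come near these values. They were picked for sharing the profile, so their differences are given without p-values. Aacs, the cytosolic acetoacetyl-CoA synthetase, had a mean of 137 CPM in control F1 livers and 54.2 CPM in FR F1, a log2 fold change of -1.34 ± 0.19. Pprc1, a coactivator related to PGC-1, had means of 61.0 and 21.9 CPM, a log2 fold change of -1.48 ± 0.25. The zinc finger gene Zfp609 had a log2 fold change of -0.93 ± 0.17, and Gm44710 and Gm16907, which carry only model names, had -0.42 ± 0.20 and -1.18 ± 0.28. Among the set itself Orm2 was the 10th most like Lcn2 and Saa2 the 38th, whereas Orm1 was the 1871st.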

How the data were processed

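Polyadenylated RNA from 6 mouse liver libraries was compared, 3 control F1 and 3 FR F1, with groups and replicate numbers from the sample titles and table columns matched by the codes in the sample descriptions. The authors deposited raw counts per gene and library. Per the submitters' processing notes the tools were STAR, StringTie, HTSeq and DESeq2 and the build mm10, with no versions or roles. The annotation release, read length, strand setting, treatment of shared reads and duplicate removal are, in the sources used here, not given. The library kit was a TruSeq DNA kit, per the labels' protocols.

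Of 53715 IDs, 53620 matched a symbol in GENCODE M21. Library totals were 2279755 to 2730160 counts. Within each group no library was a duplicate of another, since the chi-square of the 6 pairs was 4.01 to 13.4 per degree of freedom. The test was that of edgeR 4.0.16 under R 4.3.3 (filterByExpr at its defaults of 10 counts and 15 in total, TMM, quasi-likelihood F test, two-sided, Benjamini-Hochberg adjustment over 13022 genes), with a common dispersion of 0.0500. Checked on simulated data for 13022 genes in this design, 46 of 100 genes changed 2-fold and 97 of 100 changed 4-fold were called. Every simulated gene had the common dispersion, so these shares do not describe genes that vary more than that. Exact (Clopper-Pearson) binomial intervals have a level of 95% and cover counting error only. Lengths and coding windows are those of the GENCODE transcript paired with RefSeq. Matches of reads of 50, 75 and 100 bases were counted on either strand against all GENCODE transcripts, and no member exon overlaps an exon of another gene.

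The members and lists were chosen with earlier results of these data known. Genes named from a list without calls were the one with the smallest p and the one with the highest CPM, not corrected for mRNA length. Beside them stand the nearest tested neighbours of each locus and the 5 genes most like Lcn2. The 16 other settings laid down at the start were DESeq2 1.42.0, limma-voom (limma 3.58.1), 3 other scalings, 2 other filters, a replicate block, scaling without genes near the ceiling, counts expanded by the longest transcript, and each library left out, and 1 was added after seeing the data, with counts expanded by mRNA length.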

Additional observations from a re-analysis of the deposited data

How the results depend on the processing

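None of the 10 members changed sign under the 17 alternatives. The number of genes called over the whole table was 109, and became 457 with DESeq2, 1251 with no filter on low counts and 21 with a replicate block. With each library left out in turn it ran from 7 to 651. The number of members called was 4, and ran from 0 to 6 with libraries left out, where 0 came without control replicate 2 and without FR replicate 1. With a replicate block 0 members were called by edgeR, and 6 had an unadjusted p under 0.05, among 2422 of all genes. The paralog sums are made of members that this contrast chose, so their calls are given only to show how they depend on the processing, and nothing else is read from them. The sum of Saa1 and Saa2 met the threshold, and did not with the replicate block, where its log2 fold change was -1.44. With libraries left out it ran from -1.68 to -1.26 and did not meet it without control replicate 2, FR replicate 1 or FR replicate 2. The sum of the 3 orosomucoid genes did not meet the threshold, and did with DESeq2 (-0.86) and with no filter (-0.88). It ran from -0.99 to -0.67 with libraries left out and met it without control replicate 1. The causes were not tested. The labels give both groups the same replicate numbers, but same-numbered libraries deviated together with correlations of only -0.02, 0.11 and 0.15, and not every library correlated best with its own number, so the numbers are not treated as pairs. Among the other named genes that were followed through these fits, Lifr, Stab2 and Txnl4b, each near 0 and not called, changed sign in 1 or 2 of the fits that left out a library. Depth limits the cytokines, Saa3 and Orm3, with few counts per library.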
